A study of Mus musculus with 4 samples.

Results

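Interleukins are secreted proteins through which immune and other cells signal, and each acts through a receptor of 1 or more chains on the target cell. Receptor chains are shared between ligands: the IL-1 receptor accessory protein serves IL-1 and IL-33, the common gamma chain serves IL-2, IL-4, IL-7 and IL-15, and the second chain of the IL-10 receptor also serves IL-22. In dorsal root ganglia, where the bodies of sensory neurons lie among glia, macrophages and connective tissue, interleukins are known for their part in pain and itch. The genes described here are the 78 of 48431 listed genes whose symbol starts with Il and a number, leaving out Il6st, Il6ra, Il11ra1, Il31ra and Il34. Each symbol had 1 entry. They comprise 37 ligands, 38 receptor chains or binding proteins, and Il16, Il4i1 and the antisense RNA gene Il1bos.

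The study concerns translation in neuropathy caused by paclitaxel, a microtubule-stabilising chemotherapy drug. Ribosome footprints, the mRNA pieces covered by ribosomes, were sequenced from the ganglia of female wild-type mice of the SW strain. All animals had received paclitaxel into the peritoneum at 4 mg/kg on alternate days, in 4 injections, and their age is not given in the sources used here. There is 1 group of 4 libraries, and the labels do not say whether a library came from 1 animal or several. Untreated mice and RNA libraries were not analysed here, so no value below is an effect of the drug or a translational efficiency. Levels are in CPM, a gene's reads per 1000000 assigned reads, given for replicates 1 to 4 in that order or as mean ± SD over n = 4. Levels of different genes are compared per kilobase of coding sequence, because a longer gene collects more reads, and CPM values of different genes set side by side are not a ranking of their levels.

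The libraries held 5731506, 9255057, 14633423 and 10424946 assigned reads, 40044932 in all. A gene without any read could lie at up to 3 reads of this total, which is 0.0749 CPM over the group. Neuron markers (5 of 5), satellite glia markers (4 of 4) and Schwann cell markers (4 of 4) were all detected. Macrophage (7 of 7), mast cell (5 of 5), neutrophil (5 of 5), endothelial (4 of 4), fibroblast markers (4 of 4), itch neuron markers (4 of 4) and 3 of 4 B-cell markers were detected too. Of 6 T-cell markers only Cd4, which macrophages can also express, reached 1 CPM in all 4 libraries, while Cd3e stood at 0.488 ± 0.278 CPM. In a whole tissue, fewer cells of a type and less RNA per cell cannot be told apart. The mitochondrial ribosomal RNA gene mt-Rnr2 had 23520, 61455 and 52082 CPM in replicates 1, 2 and 4 and was listed at 0 in replicate 3.

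Few interleukin genes carried many reads, and most of those that did encode receptor chains. Detection required at least 1 CPM in each of the 4 libraries. By this rule 19 of the 78 genes were detected (24.4%), against 30.4% of all listed genes. All 19 are protein coding, 24.7% of the 77 members of that kind, against 62.5% of all 21683 protein-coding genes. The counts of detected genes per list below are to be read against this 62.5%, and their differences from it were not tested. The detected genes were 3 of 37 ligands (8.11%), 15 of 38 receptor chains and binding proteins (39.5%), and Il16. Ligands are short, with a median coding length of 534 bases, against 1627.5 bases for the receptors. Per kilobase the counts did not move: 3 ligands and 15 receptors had 1 CPM per kilobase or more in all 4 libraries, where Il15ra replaced Il3ra, against 60.8% of all protein-coding genes. The median level of the protein-coding members was 0.310 CPM, against 6.55 CPM for all protein-coding genes. Another 13 genes had no read in any library, 12 ligands and the receptor gene Il11ra2.

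All members together took 290 CPM in replicate 1, 247 in replicate 2, 289 in replicate 3 and 235 in replicate 4. Their sum was 265 ± 28.4 CPM, or 0.0265% of assigned reads. Per kilobase the ligands summed to 55.7 ± 5.83 and the receptors to 123 ± 12.8 CPM. The 6 genes with the most CPM, which depends on length as well as level, were Il10rb, Il4ra, Il16, Il33, Il1rap and Il17ra, and they made up 71.2% of the members' summed CPM.

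**Figure D1:**
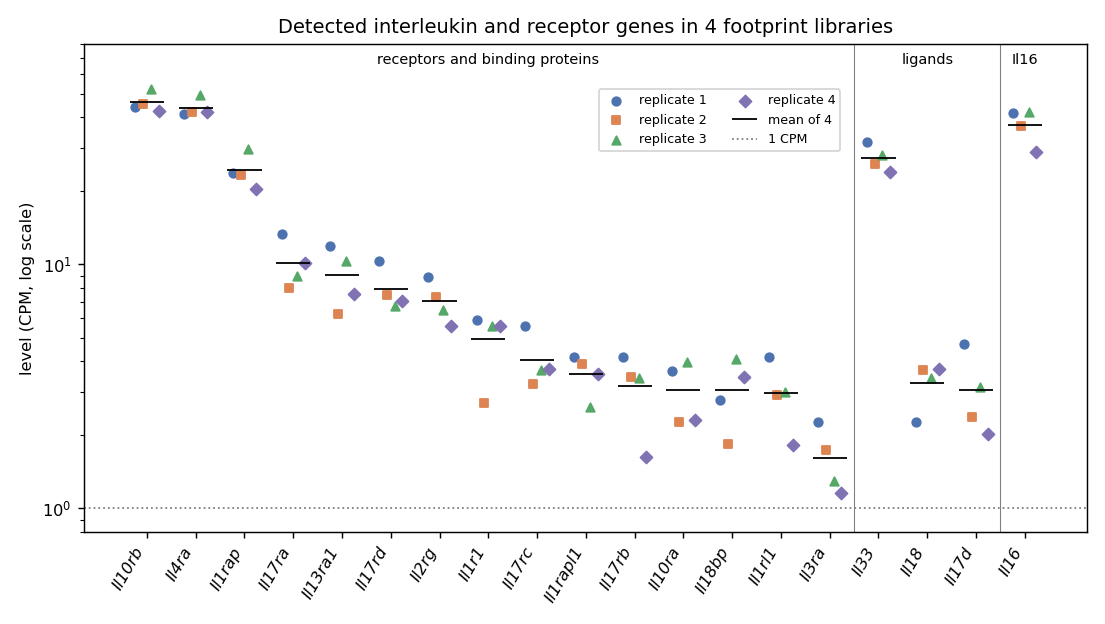
Level in CPM (log scale) of the 19 detected genes in each of the 4 libraries. Vertical lines divide receptors and binding proteins, ligands and Il16. Black bars are means and the dotted line is 1 CPM. Il10rb, Il4ra, Il16, Il33 and Il1rap lie at 20.4 CPM or more in every library, and all other genes lie at or below 13.3 CPM.

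Translation starts at the first codon of the coding sequence, and a purine 3 bases before it together with a G right after it is the known favourable setting in mammals. The start sites of the detected ligands, of the 5 receptor chains with the highest levels per kilobase, of Il16 and of 3 ligands with few or no reads are shown to set both sides of the group next to each other. Each line gives 9 bases before the start codon, the codon itself in capitals and 9 bases after it, 5′ to 3′ on the mRNA strand, read from the GENCODE M21 transcripts on GRCm38.
Il33: acctgaaaaATGagacctaga
Il18: ccaggaacaATGgctgccatg
Il17d: ggcgacgcgATGttggggaca
Il16: tctctgaggATGgaaccccac
Il10rb: cacggggccATGtcctgggcg
Il4ra: gtgtccccaATGgggcggctt
Il1rap: ccgataaggATGggacttctg
Il13ra1: aggggctgcATGgcgcggcca
Il2rg: gcaagcaccATGttgaaacta
Il1b: gaagcagctATGgcaactgtt
Il6: gaaaccgctATGaagttcctc
Il10: agctccatcATGcctggctca
A purine 3 bases before the start codon and a G after it stood together in Il18, Il16, Il1rap and Il1b, and not in the other 8 sites shown. Both features were present in 6 of the 19 detected members and in 21 of the 76 members with an annotated start site, against 8558 of 20829 protein-coding genes (41.1%). The purine alone was present in 15 of the 19, in 59 of the 76 and in 84.2% of all protein-coding genes. These counts describe the letters and say nothing of how often the sites are used.

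Among the ligands, Il33 stood far above the others. IL-33 is an alarmin of the IL-1 family, a cytokine kept in the nucleus and released when cells are damaged. Its gene (ENSMUSG00000024810.16, chromosome 19, 29925114 to 29960718, plus strand) had 31.6, 25.7, 28.0 and 23.9 CPM, and 1078 reads in all. It was high in all 4 libraries, with a mean of 27.3 ± 3.32 CPM. Per kilobase its level of 34.2 ± 4.16 CPM was higher than in 71.7% of the 13549 detected protein-coding genes.

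The other 2 detected ligands were lower in every library. Il18, an IL-1 family cytokine whose precursor is cut by caspase-1, had 2.27, 3.67, 3.42 and 3.74 CPM. It was lowest in replicate 1, where it rested on 13 reads, and averaged 3.27 ± 0.686 CPM. Il17d, a member of the IL-17 family, had 4.71, 2.38, 3.14 and 2.01 CPM and was highest in replicate 1. Its mean was 3.06 ± 1.20 CPM, and per kilobase Il17d and Il18 stood at 4.98 ± 1.94 and 5.69 ± 1.19 CPM, with overlapping ranges.

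Of the 10 ligands of the IL-1 family 2 were detected, and the others stayed under 1 CPM in at least 1 library. Il1b, the main inflammatory form of IL-1, had 3, 5, 10 and 8 reads, which is 0.649 CPM over the group (95% Wilson interval 0.443 to 0.951). Il1rn, which encodes the natural antagonist of the IL-1 receptor, had 3, 9, 7 and 6 reads, or 0.624 CPM (0.423 to 0.922). Per kilobase Il1b stood at 0.779 ± 0.145 CPM and Il1rn at 1.19 ± 0.425 CPM, with overlapping ranges. Il1a had 6 reads in all. Il1f9, the gene of IL-36 gamma, had 25 reads and Il1f5, the gene of the IL-36 receptor antagonist, had 4. Il1f6, Il1f8 and Il1f10 had none.

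Of the 7 ligands that use the common gamma chain or the IL-13 receptor none was detected. Il15 had 31 reads over the group and 1.22, 0.756, 0.957 and 0.288 CPM, and Il7, a growth factor of lymphocytes, had 29 reads and 0.698, 0.216, 1.23 and 0.480 CPM. Both crossed 1 CPM in 1 library only. Il2 had 3 reads and Il4 had 2, while Il9, Il13 and Il21 had none. Of the ligands of the beta common chain, Il5 had 9 reads, present in all 4 libraries, and Il3 had none.

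In the IL-6 and IL-12 group none of 7 ligands was detected, with a summed level of 0.612 ± 0.182 CPM. Il6, an inflammatory cytokine, had 3 reads over the group, 2 in replicate 3 and 1 in replicate 4 (0.0749 CPM, 95% Wilson interval 0.0255 to 0.220). Il12a had 11 reads, Il11 had 4, Il31 had 3, Il12b and Il23a had 2 each and Il27 had 1. In the IL-10 family 1 read fell on Il20, and Il10, Il19, Il22 and Il24 had none. For Il22 only 38.8% of the 30-nt words of its coding sequence are unique, and 61.2% also belong to Iltifb. Reads on the shared words could not have been assigned to Il22 alone. In the IL-17 family Il17b had 33 reads, of which 21 were in replicate 3, and Il25, also called IL-17E, had 21. Il17a and Il17f had 1 read each and Il17c none.

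**Figure D2:**
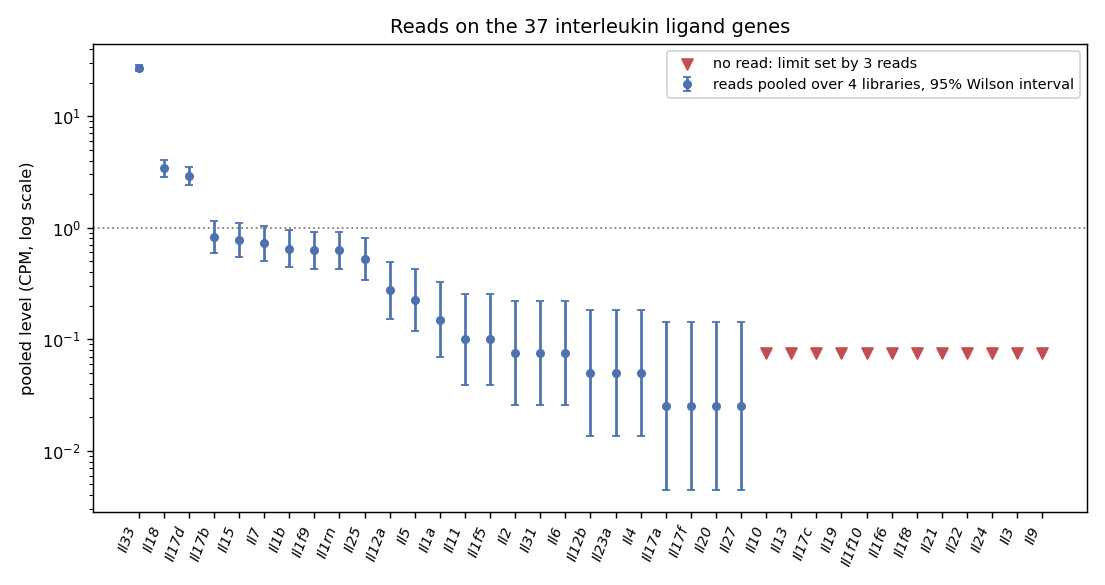
Pooled level in CPM (log scale) of the 37 ligand genes over the 4 libraries, with 95% Wilson intervals that cover counting error only; triangles mark the 12 ligands with no read, at the limit of 0.0749 CPM that 3 reads give. Il33, Il18 and Il17d lie above the dotted line at 1 CPM, and the other ligands lie below it, where some intervals still cross it. The limit shown for Il22 does not cover reads on sequence that it shares with Iltifb.

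Il16 encodes a precursor whose C-terminal part, cut off by caspase-3, is a chemoattractant for CD4+ cells, and a longer form is made in neurons. The gene (ENSMUSG00000001741.12, chromosome 7, 83642825 to 83745726, minus strand) had 41.9, 36.8, 42.1 and 28.8 CPM. It was lowest in replicate 4 and averaged 37.4 ± 6.24 CPM. With its longest annotated coding sequence, of 3966 bases, the level per kilobase was 9.43 ± 1.57 CPM, lower than in most detected protein-coding genes. The length of a shorter form would give a higher value, and reads were not assigned to forms here. Of the 30-nt words of the longest coding sequence 67.3% occur in no other gene's annotated transcripts. Its exons share 1202 bases with Stard5 on the opposite strand, which was at 11.6 ± 1.09 CPM. Whether the counting used strand is not given in the sources used here, so reads of the 2 genes cannot be told apart where they overlap.

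Of 25 gene pairs considered, 19 had reads for both genes in all 4 libraries. For these the log2 ratio of levels per kilobase was taken within each library after adding 0.1 CPM. The pairs hold receptor chains, ligands with receptors or binding proteins, antagonists or decoys with receptors, and relatives in sequence. Being paired here does not mean that the 2 products bind each other. The first gene was higher in 4 of 4 libraries for 4 pairs, the second in 4 of 4 for 10 pairs, and the order differed between libraries for 5 pairs. Each pair with the same order in 4 of 4 libraries had a 2-sided exact sign-flip permutation p of 0.13, the smallest that 4 libraries allow, so none could pass 0.05.

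Per kilobase the receptor chains that stood highest were Il10rb, Il4ra and Il1rap, in that order. Il10rb, the chain that the IL-10 receptor shares with receptors of IL-22 and lambda interferons (ENSMUSG00000022969.13, chromosome 16, 91406164 to 91425834, plus strand), had 44.3, 45.3, 52.2 and 42.7 CPM. Its mean was 46.1 ± 4.20 CPM, and 43.8 ± 3.99 CPM per kilobase was the highest level of the group. This value is uncertain. Only 47.0% of its coding words are unique, and 53.0% also belong to the overlapping gene Gm21970 at 16.5 ± 0.706 CPM. Its values were not whole numbers of reads in any library, within 0.05 reads. Il10ra, the chain that binds IL-10 itself, had 3.66, 2.27, 3.96 and 2.30 CPM. Per kilobase Il10ra was at 1.77 ± 0.516 CPM and Il10rb at 43.8 ± 3.99 CPM, a log2 ratio of −4.63 ± 0.34 with Il10ra lower in 4 of 4 libraries.

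In the remaining IL-10 family, Il20rb had 38 reads, Il22ra1 had 7, the decoy receptor gene Il22ra2 had 4 and Il20ra had 1, and none was detected.

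Il4ra and Il13ra1, which together form a receptor for IL-4 and IL-13, were both detected, among 3 of 10 chains of the common gamma chain and IL-13 group. Il4ra, which binds IL-4 (ENSMUSG00000030748.9, chromosome 7, 125552120 to 125579474, plus strand), had 41.2, 42.0, 49.5 and 41.9 CPM. It averaged 43.7 ± 3.90 CPM and was highest in replicate 3. Per kilobase it stood at 17.96 ± 1.61 CPM, above the median of 15.2 CPM of all detected protein-coding genes. Il13ra1, the chain that joins it in the IL-13 receptor, had 11.9, 6.27, 10.3 and 7.58 CPM, with replicates 1 and 3 above replicates 2 and 4. The log2 ratio of Il4ra over Il13ra1 was 1.37 ± 0.40, positive in 4 of 4 libraries. Il13ra2, a decoy receptor for IL-13, had 10 reads in all.

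Il2rg, the common gamma chain that joins Il4ra on blood cells, had 8.90, 7.35, 6.49 and 5.56 CPM. It was lower than Il4ra in every library, with a log2 ratio of Il4ra over Il2rg of 1.49 ± 0.34 per kilobase. Of its coding words 65.0% are shared with the overlapping gene Gm20489, which was listed at 0, and reads from these stretches cannot be told apart.

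The chains that pair with Il2rg for other ligands were not detected. Il2rb, which serves IL-2 and IL-15, had 34 reads over the group and Il7r, the IL-7 receptor, had 33. Their log2 ratios to Il2rg were −3.43 ± 0.31 and −3.21 ± 0.13, lower in 4 of 4 libraries. Il15ra, which presents IL-15 to neighbouring cells, missed detection in replicate 4 alone, with 1.74, 1.62, 1.85 and 0.959 CPM. Il15 and Il15ra kept no fixed order, with a log2 ratio of −0.26 ± 0.40 and Il15 lower in 3 of 4 libraries (exact permutation p = 0.375), and a pseudocount of 1 CPM turned it to 0.19. Il21r had 42 reads, Il2ra 22 and Il9r 5, and none was detected. Il3ra, the IL-3 binding chain, was the detected gene with the lowest level per kilobase and had 2.27, 1.73, 1.30 and 1.15 CPM, and Il5ra had 4 reads. Csf2rb, the partner chain of both, was at 3.07 ± 0.655 CPM.

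Of the 10 receptors and binding proteins of the IL-1 family 5 were detected, against 62.5% of all protein-coding genes. The shared accessory chain exceeded each ligand-binding chain that could be compared. Il1rap (ENSMUSG00000022514.14, chromosome 16, 26581704 to 26730117, plus strand) had 23.7, 23.2, 29.6 and 20.4 CPM, highest in replicate 3. Il1r1, the signalling receptor of IL-1, had 5.93, 2.70, 5.60 and 5.56 CPM, so that replicate 2 stood apart at less than the others. Il1rl1, the IL-33 receptor also called ST2, had 4.19, 2.92, 3.01 and 1.82 CPM, highest in replicate 1 and lowest in replicate 4. Per kilobase the log2 ratio to Il1rap was −2.07 ± 0.54 for Il1r1, −2.75 ± 0.41 for Il1rl1 and −5.08 ± 0.32 for the IL-36 receptor gene Il1rl2, in 4 of 4 libraries each. Il33 itself exceeded its receptor Il1rl1 by a log2 ratio of 4.29 ± 0.32, which is 19.6-fold.

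Mast cells carry ST2, and the summed level of their markers was highest in replicate 1 and lowest in replicate 4, like Il1rl1 and the IL-25 receptor gene Il17rb. All 5 mast cell markers were detected and none was at 0. Their summed level was 269, 241, 221 and 172 CPM, and the protease gene Mcpt4 had 56.2, 36.6, 37.04 and 19.7 CPM. The marker Kit did not share this order, with 112, 123, 105 and 110.02 CPM. The pattern was not particular to these genes. Il33, Il2rg, Il3ra and Il17d were also highest in replicate 1 and lowest in replicate 4. So was the summed level of the endothelial markers, at 213, 176, 183 and 157 CPM. The part of mast cells in the spread of Il1rl1 and Il17rb was not tested.

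The decoy receptor gene Il1r2 lay below Il1r1 in every library (log2 ratio −1.97 ± 0.26), with 31 reads over the group. Il1rn was lower than Il1r1 in replicates 1, 3 and 4 and higher in replicate 2, with a log2 ratio of −1.06 ± 0.92 (exact permutation p = 0.25). Il1rapl1 encodes a synaptic adhesion protein of neurons that is related in sequence to Il1rap, and its human gene is mutated in intellectual disability. It had 4.19, 3.89, 2.60 and 3.55 CPM and was below Il1rap by a log2 ratio of −2.77 ± 0.48, while its relative Il1rapl2 had 11 reads.

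The IL-18 system was present at low levels on both the ligand and the inhibitor side. Il18bp, which encodes a secreted protein that neutralises IL-18, had 2.79, 1.84, 4.10 and 3.45 CPM. Per kilobase Il18 was at 5.69 ± 1.19 CPM and Il18bp at 5.23 ± 1.66 CPM. Their log2 ratio was 0.15 ± 0.58, with each gene higher in 2 libraries (exact permutation p = 0.875). Without replicate 2 the ratio turned to −0.13. The receptor chains Il18r1 and Il18rap had 13 and 34 reads over the group, and Il18r1 had none in replicate 2.

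Of the 5 IL-17 receptor genes 4 were detected, against 62.5% of all protein-coding genes, and this difference was not tested. Il17ra, a chain shared by several receptors of the family (ENSMUSG00000002897.5, chromosome 6, 120463247 to 120487559, plus strand), had 13.3, 7.996, 8.95 and 10.2 CPM. Il17rc, its partner for IL-17A and IL-17F, had 5.58, 3.24, 3.69 and 3.74 CPM. Both were highest in replicate 1, and their log2 ratio was nearly the same in each library, at 0.94 ± 0.08 per kilobase of coding sequence. Per kilobase of the longest transcript the direction turned, to −0.46, since the longest transcript has 7752 bases for Il17ra and 2302 bases for Il17rc.

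Il17rb, which joins Il17ra to bind IL-25, had 4.19, 3.46, 3.42 and 1.63 CPM and was lowest in replicate 4. It was below Il17ra in 4 of 4 libraries, by a log2 ratio of −0.90 ± 0.62. This order depended on the length used. Per kilobase of the longest transcript the ratio was −0.10 (exact permutation p = 0.875). Il17rd, also called Sef and known as an inhibitor of fibroblast growth factor signalling, had 10.3, 7.46, 6.77 and 7.10 CPM. Il17rd and Il17ra were not separated, with a log2 ratio of −0.12 ± 0.17 (exact permutation p = 0.25). Il17re, the IL-17C receptor chain, was not detected, with 51 reads and a log2 ratio to Il17ra of −2.59 ± 0.62. Il17d per kilobase lay 0.34 ± 0.38 above Il17ra on the log2 scale, in 3 of 4 libraries (exact permutation p = 0.25). This pair compares levels only and does not mean that Il17ra is a receptor of Il17d.

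No receptor of the IL-12 group reached 1 CPM in all 4 libraries. Il27ra, which pairs with gp130 to bind IL-27, had 2.27, 1.62, 0.547 and 1.34 CPM and fell short in replicate 3 alone. Il12rb1, shared by the IL-12 and IL-23 receptors, had 2.09, 0.972, 0.820 and 0.959 CPM and passed in replicate 1 alone. Their specific partners Il12rb2 and Il23r had 3 and 2 reads over the group. Il11ra2 had no read, but every 30-nt word of its coding sequence occurs in other annotated transcripts, so its reads could not have been assigned to it alone. The closely related Il11ra1 was at 9.32 ± 1.93 CPM.

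**Figure D3:**
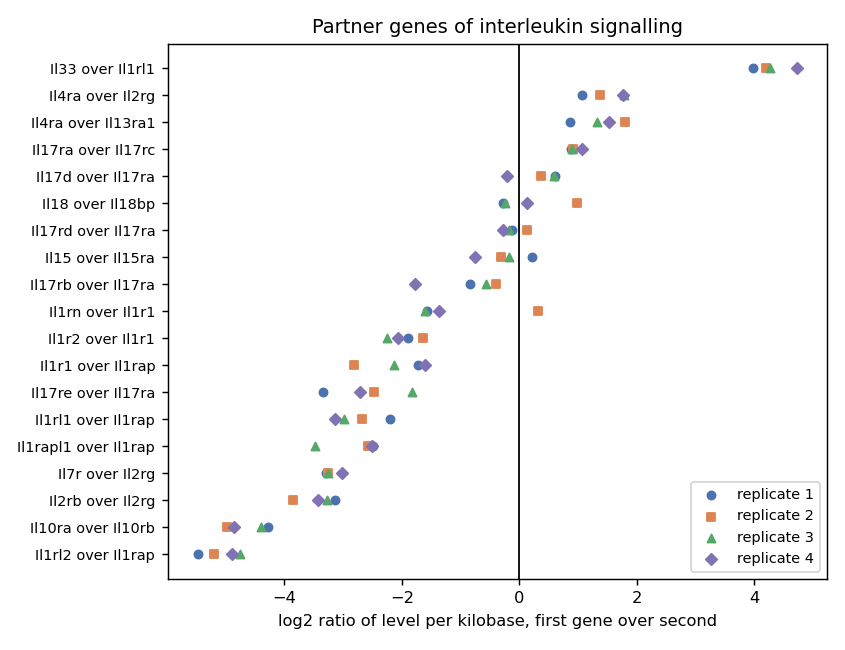
Log2 ratio of levels per kilobase, first gene over second, for the 19 gene pairs in each of the 4 libraries. Points left of 0 mean that the first gene is lower. Il33 over Il1rl1 is the highest ratio at 4.29 on average, and Il10ra over Il10rb and Il1rl2 over Il1rap are the lowest at −4.63 and −5.08.

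Of the genes with an interleukin name but another kind of product, Il4i1, which encodes an amino acid oxidase, had 10.8 reads over the group. Only 8.86% of its coding words are unique, and its reads were fractional in some libraries, where the sum with the overlapping genes Nup62 and Tbc1d17 came to 888 and 1297 reads in replicates 2 and 3. The antisense RNA gene Il1bos had 1 read.

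Per kilobase the order of the detected genes was led by Il10rb, Il33 and Il4ra, each separated from the next gene in every library without overlap of the ranges. Among the 18 neighbouring pairs in this order, these 3 were the ones without overlap, and the ranges of the other 15 overlapped. The first place of Il10rb and its distance from Il33 are uncertain, since only 47.0% of the coding words of Il10rb are unique. Genes farther apart in this order could still be separate, as Il13ra1 at 7.08 ± 2.001 CPM per kilobase and Il3ra at 1.36 ± 0.422 CPM per kilobase, whose ranges did not overlap. The median of the 19 detected members was 4.98 CPM per kilobase, against 15.2 CPM per kilobase for all detected protein-coding genes, a comparison in which both sides passed the same filter.

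**Figure D4:**
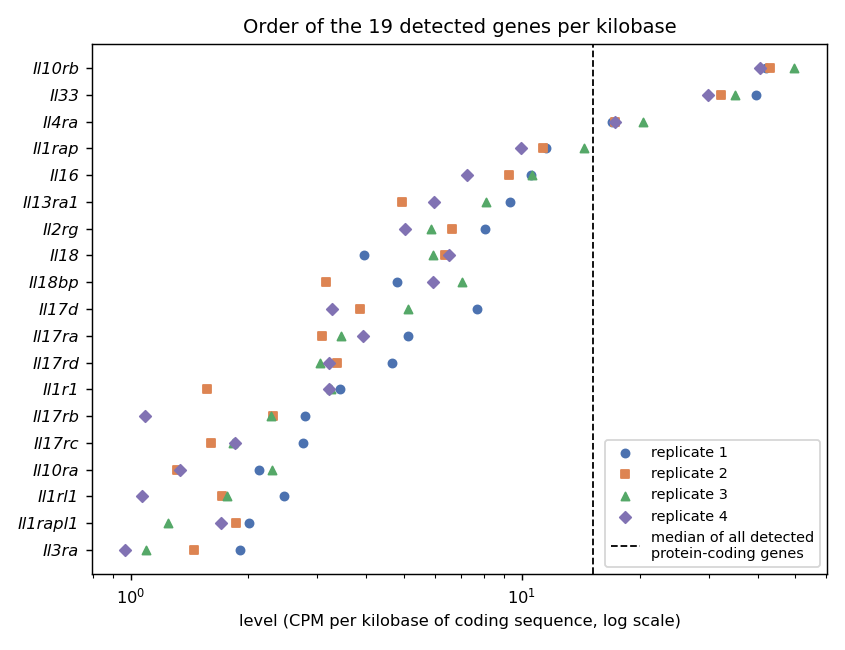
Level per kilobase of coding sequence (CPM per kilobase, log scale) of the 19 detected genes, ordered by mean, with 1 point per library; the dashed line is the median of all detected protein-coding genes, 15.2. Il10rb, Il33 and Il4ra lie right of the line in every library, and the other 16 lie left of it. The level of Il10rb is uncertain, because much of its coding sequence is shared with Gm21970.

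No member was called for its spread between libraries. The between-library variance of log2(CPM + 1) was tested in limma against that of genes of the same level. None of the 24 members with a mean of 1 CPM or more was called at an adjusted p of 0.05, and none had an unadjusted p under 0.05, while 242 of 15728 genes (1.54%) were called over the whole table. The smallest member p was that of Il1r1, at 0.111 (limma adjusted p = 0.964). The median coefficient of variation was 27.1% in these 24 members. It was 16.1% in the 11692 genes within the range of their means and 14.0% in all genes tested. The genes within that range were not matched to the members in level, so these medians do not measure excess spread. The SD between libraries was a median of 1.67 times the SD that counting alone gives, against 1.48 times in the genes within that range and 1.69 times over all genes tested. Of the 19 detected members, 12 were highest in replicate 1, which had the fewest reads, and 9 were lowest in replicate 4. Another 6 were highest in replicate 3. The same counts were not taken over all detected genes, so these counts cannot be read as a trait of the members. The gene mt-Rnr2, which takes part of the fixed total, had 23520 and 0 CPM in replicates 1 and 3. It had 61455 and 52082 CPM in replicates 2 and 4, and its part in these counts was not tested. The sum of the 4 fibroblast markers, most of it Col1a1, was highest in replicate 1, at 10948, 6740, 7839 and 7926 CPM. Among these markers Pdgfra was instead highest in replicate 3. The macrophage, neutrophil, B-cell, mast cell and endothelial sums were highest in replicate 1 too. The Schwann cell and satellite glia sums were highest in replicate 3, the itch neuron sum in replicate 2 and the T-cell sum in replicate 4. The sum of the 5 neuron markers was lowest in replicate 1, at 6550, 7382, 7949 and 7196 CPM. The part of tissue makeup in the spread of the members was not tested.

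The signalling genes downstream of these receptors are given by their counts, to be read against the 62.5% of all protein-coding genes that were detected, and by the genes with the most CPM in each list, which are not corrected for length. Of the adaptors of the IL-1 and Toll-like receptors, 10 of 11 were detected, with the inhibitory adaptor Tollip at 101 ± 8.14 CPM and the kinase gene Map3k7 at 19.2 ± 2.46 CPM and Tab2, its binding partner, at 17.4 ± 1.72 CPM. Myd88, the first adaptor, was at 6.74 ± 0.934 CPM, and the inhibitory receptor gene Sigirr was not detected. Of the genes that process IL-1 and IL-18, 4 of 6 were detected. Casp1, which cuts both precursors, was at 12.7 ± 2.05 CPM, the pore-forming Gsdmd at 5.53 ± 1.75 CPM and Casp4 at 3.74 ± 0.759 CPM, while the inflammasome sensors Nlrp3 and Nlrp1b were not detected.

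Of 15 JAK, STAT and SOCS genes 13 were detected. Jak1, a kinase used by many cytokine receptors, had 524, 572, 535 and 536 CPM. Stat3 was at 516 ± 29.8 CPM, and Stat6, which acts downstream of Il4ra, at 130 ± 8.43 CPM. Stat4, which acts downstream of IL-12, and Socs1 were not detected. Of the IL-17 adaptors 4 of 5 were detected, with Traf2 at 12.2 ± 1.35 CPM, Traf3ip2, also called Act1, at 10.4 ± 1.73 CPM and Traf3 at 3.37 ± 0.263 CPM. All 11 NF-kappaB genes were detected, with Rela at 54.5 ± 6.97 CPM, Nfkb1 at 50.6 ± 10.7 CPM and the inhibitor gene Nfkbia at 41.8 ± 5.35 CPM. Of 6 shared chains and partners that are named otherwise 5 were detected, with Csf2ra at 9.86 ± 1.37 CPM, Crlf2 at 5.77 ± 1.43 CPM and Csf2rb.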

How the data were processed

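Footprint libraries from 4 samples of 1 group were analysed. Spin columns served to isolate RNA bound to ribosomes, per the labels' protocols, with depletion of ribosomal RNA and selection of 28 to 34 nt pieces by gel. Bowtie2 2.2.9, TopHat2 2.1.1, Cufflinks 2.2.1 and FastQC 0.11.5, and the builds mm10 and GRCm38.p4, stand without roles in the submitters' processing notes. The sources used here do not give how reads were counted. The deposited table is named for TPM, but each column sums to 1000000 and 96.5% to 96.8% of the values above 0 lie within 0.05 of a whole multiple of a step that does not depend on gene length. For this reason the deposited values were taken as CPM, not as length-corrected levels, and 1000000 over the step gave the depth.

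GENCODE M21 on GRCm38 matched 48052 identifiers and gave coordinates counted from 1, coding lengths and the share of 30-nt coding words found in no other gene's transcripts. Members, lists and pairs were chosen with earlier results of these data known. Every detected member, the undetected members of each list and up to 3 other genes per pathway list are named; genes named beyond this rule (Cd3e, Cd4, Mcpt4, Kit, Col1a1, Pdgfra, Myd88, Sigirr, Stat6, mt-Rnr2, undetected pathway genes and genes sharing sequence) were chosen after their values were seen. The level of 1 gene that this rule names is not reported here. Variance was tested with limma 3.58.1 (trended, robust prior, F test, Benjamini-Hochberg over all genes averaging 1 CPM or more, pseudocount 1 CPM). The method was first run on simulated data, in which only genes well above 1 CPM were changed. That run does not show how well spread is found in members near 1 CPM. The pair test was an exact sign-flip permutation, 2-sided. Since no label says that replicates are different animals, p-values here reflect spread among these libraries, which may be technical. Wilson intervals (95%) and floors cover counting error only. Alternatives were other detection rules, scalings, pseudocounts and lengths, and leaving out each library.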

Additional observations from a re-analysis of the deposited data

Results flagged for a closer look

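In 7 of 64 sets of 4 values, 1 library stood apart. Its gap to the nearest neighbour exceeded Dixon's 95% critical share of the whole range. For independent normal values chance gives this in about 1 set in 20. Sets with few reads and pairs that reuse a gene do not meet that condition, so the 7 sets cannot be read as an excess. Il4ra (0.897) was high in replicate 3, at 49.5 CPM against 41.2 to 42.0 CPM in the others. Rescaled to a total that omits mitochondrial and the 20 highest genes, its values were 46.8, 50.3, 56.0 and 50.2 CPM and the gap fell to 0.618. Il1r1 (0.886) was low in replicate 2, at 2.70 CPM on 25 reads, against 5.56 to 5.93 CPM, and its gap was 0.885 after the same rescaling and 0.814 after quantile normalisation. Il12rb1 (0.88) was high in replicate 1 on 12 reads, and Il9r (0.858) in the same library on 2 reads. After quantile normalisation their gaps were 0.786 and 0.81, and that of Il4ra was 0.517, so none of these 4 genes stood apart there.

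Among the pairs, Il1rapl1 over Il1rap (0.926) was low in replicate 3, with a log2 ratio of −3.48. Il7r over Il2rg (0.913) was least negative in replicate 4, at −3.02. Il1rn over Il1r1 (0.878) was positive only in replicate 2, at 0.31, the library in which Il1r1 was low.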

How the results depend on the processing

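The count of 19 detected members became 30 at 0.5 CPM, and lay between 15 and 24 under the other rules, scalings and left-out libraries; it was also 19 at 1 CPM per kilobase, a rule chosen after seeing the data. No member was called for variance by limma under any alternative run, and none had an unadjusted p under 0.05 (smallest p 0.0647 to 0.135). Rescaling without mitochondrial and the 20 highest genes, which shifts the median gene by 0.22 on the log2 scale, gave sums of 309 CPM for all members, 46.0 CPM for ligands and 219 CPM for receptors. Without members under 50% unique, an alternative chosen after seeing the data, all members summed to 212 CPM and receptors to 135 CPM. Leaving out each library moved the sum of all members between 257 and 275 CPM. Log2 ratios turned for Il15 over Il15ra with a pseudocount of 1 CPM (0.19), Il17d over Il17ra without length correction (−1.74), Il17ra over Il17rc with transcript lengths (−0.46) and Il18 over Il18bp without replicate 2 (−0.13, range −0.13 to 0.29 over left-out libraries). The edgeR alternative was not run, because the values are not all whole reads. No paired analysis was possible because there is 1 group. Members under about 10 reads cannot be ranked at this depth.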
